A study of Mus musculus with 12 samples.

Results

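Adult mouse forebrain carrying a Notch knockout was compared with wildtype forebrain, both after exposure to valproic acid before birth. The members are the 6 libraries that the labels place in these groups, of 12 libraries in the series, and every gene of the raw count table was considered. The knockout libraries, 3 in number, have the genotype htr3a Notch KO, which the series calls a conditional knockout, and the 3 wildtype libraries carry no allele named in the labels. Valproic acid is an antiepileptic drug that also inhibits histone deacetylases, and exposure of the fetus to it is used in rodents to model autism. The other 6 libraries, 3 from htr3a Notch KO and 3 from wildtype brain without the drug, were used for values of the same genotype comparison without exposure. Which Notch gene was deleted, the driver of the deletion, the number of floxed alleles, the background strain, the dose and day of the drug, and the age beyond adult are not stated by the labels. They also leave out whether the libraries stand for separate animals, and every p-value thus measures the spread between these libraries, which may in part be technical. Ribosomal RNA was removed before sequencing, and the analysed values are whole-number read counts per gene.

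Notch receptors are cleaved when a ligand on a neighbouring cell binds them, and the released fragment enters the nucleus and switches on genes such as Hes1 and Hes5 together with the protein Rbpj. In the forebrain this pathway holds progenitors back from becoming neurons, and it also acts in glia and blood vessels. Htr3a encodes a subunit of the serotonin receptor that is an ion channel, and it marks a class of cortical interneurons born in the caudal ganglionic eminence. The choroid plexus, the epithelium that secretes cerebrospinal fluid into the ventricles, and the pineal gland border the forebrain and can be taken along with it in a dissection.

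The promoters of 4 genes that passed the test are shown because these genes stand for the separate places in the genome and tissues described below. They run from 250 bases before to 50 bases after the gene start on the strand of the gene, and are taken from RefSeq on build GRCm38.p6, which is not the build of the counts. Capitals mark TAATCC, read on either strand (GGATTA on the other), the 6 bases bound by Crx, a homeodomain protein of photoreceptors and the pineal gland.
Rbp3, chr14:33953753-33954052, plus strand: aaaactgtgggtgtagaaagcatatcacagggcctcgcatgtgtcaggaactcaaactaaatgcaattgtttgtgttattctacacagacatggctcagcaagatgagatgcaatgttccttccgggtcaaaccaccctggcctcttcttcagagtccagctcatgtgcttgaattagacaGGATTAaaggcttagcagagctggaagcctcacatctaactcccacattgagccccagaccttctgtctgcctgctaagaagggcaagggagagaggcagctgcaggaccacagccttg
Cldn2, chrX:139800558-139800857, plus strand: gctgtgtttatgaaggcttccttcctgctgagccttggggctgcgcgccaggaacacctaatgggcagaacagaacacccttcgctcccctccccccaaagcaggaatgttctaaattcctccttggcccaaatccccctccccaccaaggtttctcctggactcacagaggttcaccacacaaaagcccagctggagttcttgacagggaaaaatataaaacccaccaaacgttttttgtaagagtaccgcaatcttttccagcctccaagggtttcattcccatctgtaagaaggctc
Htr3b, chr9:48964941-48965240, minus strand: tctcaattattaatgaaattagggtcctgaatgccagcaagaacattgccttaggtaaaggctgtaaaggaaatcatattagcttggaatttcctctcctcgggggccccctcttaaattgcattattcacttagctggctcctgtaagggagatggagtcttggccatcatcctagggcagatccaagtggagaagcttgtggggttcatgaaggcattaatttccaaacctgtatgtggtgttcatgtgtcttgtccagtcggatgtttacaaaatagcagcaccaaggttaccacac
Mzt1, chr14:99046087-99046386, minus strand: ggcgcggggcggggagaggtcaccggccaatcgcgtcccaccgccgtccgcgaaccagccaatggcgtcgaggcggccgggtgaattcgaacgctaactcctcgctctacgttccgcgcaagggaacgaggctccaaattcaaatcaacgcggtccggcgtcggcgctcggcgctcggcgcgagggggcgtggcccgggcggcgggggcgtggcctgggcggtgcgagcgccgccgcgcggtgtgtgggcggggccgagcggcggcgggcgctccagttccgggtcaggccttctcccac
The Mzt1 promoter held 51 CG pairs, against 5 in Cldn2, 2 in Rbp3, 2 in Htr3b and a median of 7 over 27025 mouse promoters. Rbp3 held 1 match to TAATCC and the other 3 printed promoters held none. Of all promoters 7.16% held a match. Of 17 listed pineal and photoreceptor genes 12 had a promoter counted, and 5 of those (41.7%) held a match. Of 21 choroid plexus genes 15 had a promoter counted, and 0 held a match. A match describes the letters and not a bound site, and does not tell which protein would bind there.

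The knockout libraries with valproic acid held 18935991, 20820718 and 22494104 counts, and the wildtype libraries with valproic acid held 24091597, 24155672 and 20279003. The mitochondrial genome gave 13.5% to 18.6% of the counts in knockout with the drug and 13.4% to 16.4% in wildtype with the drug. Xist, the RNA of the inactive X chromosome, had 6 and 12 counts in replicate 3 of the exposed knockout and of exposed wildtype, and 8363 to 10105 in the other 4 exposed libraries. Each exposed group thus held 1 library without Xist, and the same libraries held the reads of 4 genes of the Y chromosome (2260 counts in the knockout and 1991 in wildtype), so replicate 3 of each group held tissue of other animals than replicates 1 and 2. Knockout replicate 1 and wildtype replicate 3 stood apart from the other replicates of their groups in their counts over genes, with the highest mitochondrial shares (18.6% and 16.4%), and results that turn on either are given with and without it. Levels are CPM, counts divided by the library size in units of 1e6 reads, after scaling by edgeR's TMM factors. Differences were tested with edgeR's quasi-likelihood test at 0.05, with p-values adjusted by the Benjamini-Hochberg method over the 17995 genes kept for testing.

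After valproic acid 9 genes passed in knockout against wildtype, which is 0.05% of the genes tested. Of these, 7 rose (0.0389% of the tested genes: Htr3b, Htr3a, Gm32335, Usp28, Zbtb16, Rbp3 and Cldn2) and 2 fell (0.0111%: Mzt1 and Gm6145). Chromosome 9 carries 5 of them in an unbroken stretch, chromosome 14 carries Mzt1, Gm6145 and Rbp3, and Cldn2 is on the X chromosome. Without the drug 7 genes passed (0.0389% of the tested genes), and 6 of them are the chromosome 9 genes and Mzt1, the other being an unnamed gene, ENSMUSG00002076173. The difference between the genotype effects with and without the drug (the interaction) passed for 0 genes with edgeR (0.0%), with DESeq2 and with limma-voom, and 1075 genes (5.97%) had an unadjusted p under 0.05 with edgeR. A gene that passed with the drug and not without it is therefore not shown to differ between the conditions.

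**Figure D1:**
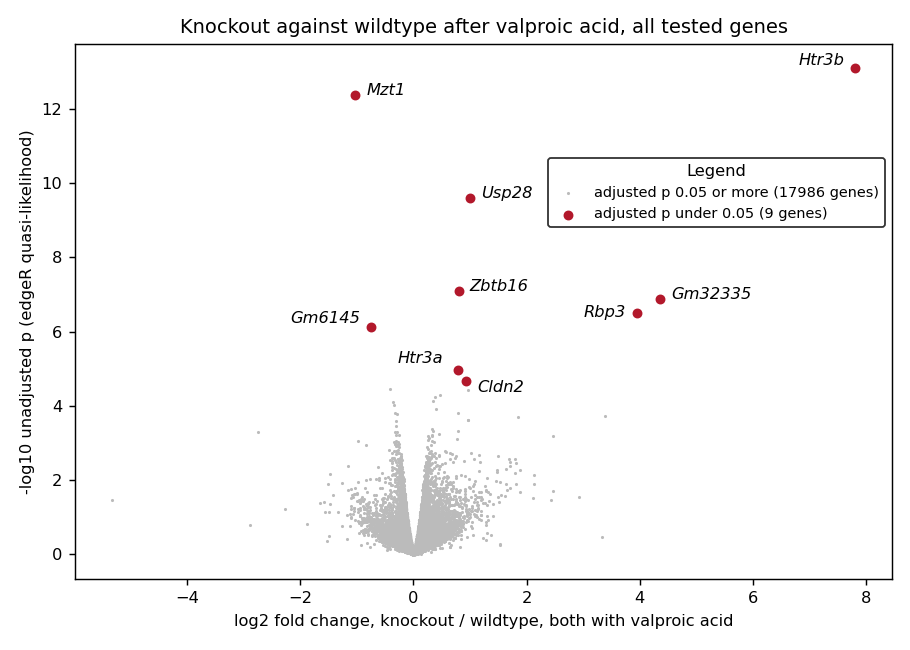
The log2 fold change of knockout over wildtype, both with valproic acid, on the x axis, against -log10 of the unadjusted edgeR p on the y axis, for 17995 tested genes (1 point each). The 9 named genes past the test stand above the other 17986, and fitted fold changes of Htr3b, Gm32335 and Rbp3 rest on 1, 4 and 7 counts in wildtype.

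The Notch receptors were examined as the targets named by the genotype. Notch1 had 17.6, 17.9 and 21.7 CPM in knockout with valproic acid and 17.2, 15.2 and 18.3 CPM in wildtype with valproic acid (log2 fold change 0.18 ± 0.11 SE, edgeR adjusted p = 0.749). Notch2 had 27.2, 23.5 and 31.0 CPM in the knockout and 28.7, 22.0 and 31.0 CPM in wildtype. The libraries of both genotypes overlapped for each of these receptors, and none was low in every knockout library. Notch3 had 13.8, 8.73 and 14.6 CPM in the knockout and 12.2, 12.6 and 13.5 CPM in wildtype, and Notch4 had 6.59, 8.63 and 8.27 CPM against 9.04, 6.92 and 7.45 CPM. The log2 fold changes of Notch2, Notch3 and Notch4 were 0.01, -0.04 and 0.01, and all 3 change sign under other settings. No receptor gene was lower past the test, and counts per gene over bulk tissue show neither a missing exon nor a loss in a small set of cells. Rbpj, the nuclear partner of all 4 receptors, had 22.2, 19.7 and 20.8 CPM in the knockout and 23.5, 23.6 and 19.4 CPM in wildtype (log2 -0.09 ± 0.10 SE).

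Genes that act with the receptors gave values near those of all genes. Among 11 receptors and ligands, 6 had higher and 5 lower values, with a median log2 fold change of 0.01. Of these 0 passed the test, where 0.05% of all genes did. At an unadjusted p under 0.05, 0 were higher and 0 lower, where 722 of all genes (4.01%) were higher and 616 (3.42%) lower. A list of 11 genes is too short to be set against such shares. Of 22 genes for receptor processing and nuclear cofactors, 8 had higher values (median -0.03), and of 17 Notch target genes 9 did (median 0.01). None of the 39 passed. The effector repressor gene Hes1 had 8.87, 10.8 and 7.65 CPM in the knockout and 8.59, 8.39 and 10.7 CPM in wildtype. Hes5, another repressor switched on by Notch, had 9.15, 8.82 and 9.37 CPM in the knockout and 9.93, 10.8 and 9.38 CPM in wildtype. Hes1 overlapped between the genotypes. All 3 knockout values of Hes5 were below those of wildtype, with 9.37 CPM in the highest knockout library and 9.38 CPM in the lowest wildtype library, and the edgeR adjusted p was 0.95. The target with the smallest p was Id3, an inhibitor of DNA binding by basic helix-loop-helix factors, at 52.0, 53.3 and 50.1 CPM in the knockout and 44.6, 36.2 and 47.5 CPM in wildtype (log2 0.28 ± 0.08 SE, edgeR adjusted p = 0.417).

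The serotonin receptor genes and their neighbours on chromosome 9 rose in the knockout. Htr3b, the second subunit of the ionotropic serotonin receptor, had 4.60, 4.22 and 4.92 CPM in knockout with valproic acid and 0, 0 and 0.051 CPM in wildtype with valproic acid. That is 281 counts over the 3 knockout libraries against 1 count over wildtype, a ratio of 316 with a 95% counting interval of 56.2 to 12500 (edgeR adjusted p = 1.45e-09). The gene was thus near its floor in all wildtype libraries and at similar levels in all knockout libraries. Such intervals cover counting error only. Htr3a had 10.9, 10.3 and 9.94 CPM in the knockout and 5.19, 6.67 and 6.17 CPM in wildtype, a 1.72-fold rise (log2 0.79 ± 0.14 SE, edgeR adjusted p = 0.0243). The lowest knockout library lay above the highest wildtype library. This call was lost when knockout replicate 1, 2 or 3 or wildtype replicate 1 with the drug was left out (edgeR adjusted p = 0.161, 0.146, 0.0924 and 0.388), with log2 fold changes of 0.75, 0.79, 0.82 and 0.69. Without both libraries lacking Xist its edgeR adjusted p was 0.0581.

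Gm32335, a noncoding RNA gene that the annotation places antisense beside Htr3a, had 1.76, 0.815 and 1.41 CPM in the knockout and 0.0405, 0.0409 and 0.102 CPM in wildtype. It held 80 counts against 4, a ratio of 22.5 (interval 8.44 to 84.4, edgeR adjusted p = 0.00048). Whether the counting used strand is not given, so reads of Gm32335 and of genes on the opposite strand there cannot be told apart. Usp28, a deubiquitinating enzyme, had 39.5, 42.6 and 41.5 CPM in the knockout and 21.8, 21.2 and 18.5 CPM in wildtype (2.01-fold, with an SE of 0.10 on the log2 scale, edgeR adjusted p = 1.55e-06). Zbtb16, a zinc finger transcription factor also induced by glucocorticoids, had 40.1, 37.9 and 37.8 CPM in the knockout and 20.3, 23.4 and 22.9 CPM in wildtype (log2 0.80 ± 0.10 SE, edgeR adjusted p = 0.000369). In both genes the groups were separated by more than their whole spread. Of 14 genes of the glucocorticoid response 7 had higher values, with a median of 0.00, and Zbtb16 was the member past the test.

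The tested genes on either side of this stretch did not pass. In chromosome order the tested genes are Rbm7, Gm5617, Nnmt, Zbtb16, Gm32335, Htr3a, Htr3b, Usp28, Zw10, Tmprss5 and Drd2. Nnmt, a methyltransferase next to Zbtb16, had a log2 fold change of 0.03 ± 0.43 SE, and Zw10, a kinetochore protein gene next to Usp28, had -0.02 ± 0.11 SE. The next genes outward, Gm5617 (0.30 ± 0.18 SE) and Tmprss5 (0.07 ± 0.31 SE), did not pass, nor did Rbm7 or the dopamine receptor gene Drd2 (0.20 ± 0.20 SE). Without valproic acid the same 5 genes passed, with log2 fold changes of 1.25 for Htr3a, 1.11 for Usp28 and 0.75 for Zbtb16, and with 250 knockout counts against 0 for Htr3b (at least 91.4-fold higher, taking the wildtype sum as 3 counts) and 66 against 0 for Gm32335 (at least 24.1-fold higher). For Htr3a, with 0.79 in exposed and 1.25 in unexposed libraries, the interaction missed the threshold (edgeR adjusted p = 0.833).

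**Figure D2:**
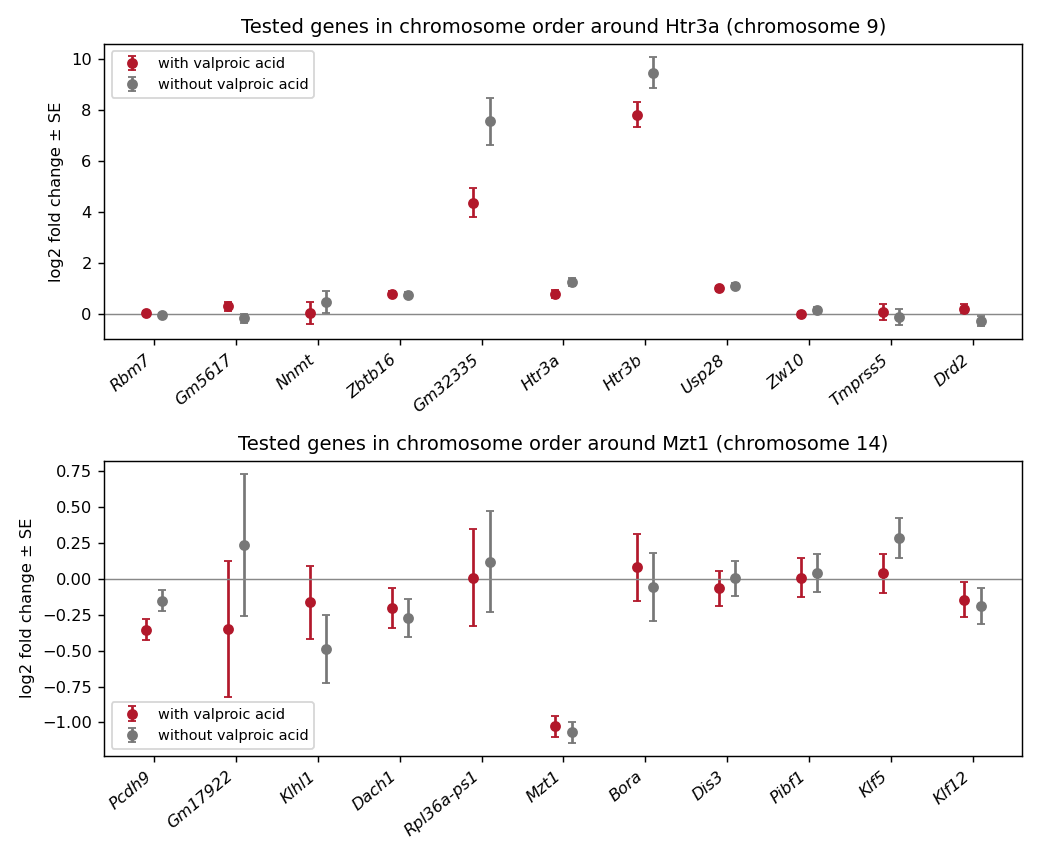
Log2 fold change of knockout over wildtype (y axis, ± SE from the edgeR fit) for the tested genes in chromosome order (x axis) around Htr3a and around Mzt1, with valproic acid in red and without it in grey. Values stand furthest from 0 from Zbtb16 to Usp28 and at Mzt1, and no gene on either side passed. Flanking values include -0.35 ± 0.07 SE for Pcdh9 with the drug and -0.49 ± 0.24 SE for Klhl1 without it. Those of Htr3b and Gm32335 are fitted values with 0 to 4 wildtype counts.

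Other serotonin genes did not pass. Of 21 tested genes of serotonin receptors and handling, 12 had higher and 9 lower values, with a median of 0.13, and Htr3a and Htr3b were the 2 past the test. At an unadjusted p under 0.05, 5 were higher and 0 lower, against 4.01% and 3.42% of all genes, and the 3 besides Htr3a and Htr3b were Tph1, Htr2c and Slc29a4. Slc29a4, a transporter of monoamines, had 21.03, 21.67 and 23.96 CPM in the knockout and 15.93, 16.41 and 21.11 CPM in wildtype (log2 0.33 ± 0.11 SE, edgeR adjusted p = 0.453), with a narrow overlap. Tph1 passed with no count filter (edgeR adjusted p = 0.00664) and Slc29a4 with limma-voom (adjusted p = 0.0218). Htr2c, a receptor abundant in choroid plexus, had 42.3, 44.0 and 37.4 CPM in the knockout and 33.2, 35.3 and 34.6 CPM in wildtype (log2 0.26 ± 0.09 SE, edgeR adjusted p = 0.453). Its lowest knockout value was above the highest in wildtype. Among 15 markers of the interneuron class that Htr3a marks, 8 had higher and 7 lower values (median 0.02), and Htr3a was the member past the test. The summed level of these markers was 541, 647 and 606 CPM in the knockout and 663, 604 and 551 CPM in wildtype, and the groups overlapped. Markers of the interneurons of the medial eminence had lower values in 7 of 10 (median -0.07), with 0 past the test.

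Mzt1 fell to about the same level in every knockout library. It encodes a small protein that recruits the gamma-tubulin ring complex, the template from which microtubules grow, to its sites of action. Mzt1 had 43.9, 46.1 and 40.7 CPM in knockout with valproic acid and 88.9, 93.7 and 83.3 CPM in wildtype with valproic acid (log2 -1.03 ± 0.07 SE, edgeR adjusted p = 3.75e-09). The highest knockout library lay far below the lowest wildtype library. Without the drug it had 50.5, 57.0 and 56.1 CPM in knockout and 112, 110 and 121 CPM in wildtype (log2 -1.07). The other 12 genes of the gamma-tubulin ring complex list did not pass, and the list median was -0.02. Tubgcp4, a core subunit of the ring, had 7.73, 6.91 and 9.32 CPM in the knockout and 10.5, 9.45 and 8.77 CPM in wildtype, and the groups overlapped (log2 -0.26 ± 0.14 SE, edgeR adjusted p = 0.721).

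The neighbours of Mzt1 on chromosome 14 did not pass. Bora, a mitotic kinase activator whose gene is the next tested gene, had a log2 fold change of 0.08 ± 0.23 SE, and Dis3, an exosome ribonuclease, had -0.07 ± 0.12 SE. On the other side Rpl36a-ps1 had 0.01 ± 0.34 SE, Dach1, a transcription cofactor, had -0.20 ± 0.14 SE and Klhl1 had -0.16 ± 0.26 SE. Pcdh9, a protocadherin, 5 tested genes away, had 54.7, 55.8 and 58.4 CPM in the knockout and 79.2, 69.3 and 67.4 CPM in wildtype (log2 -0.35 ± 0.07 SE, edgeR adjusted p = 0.0915). Its groups did not overlap, and it missed the threshold.

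Gm6145, a predicted gene elsewhere on chromosome 14, also fell. It had 19.7, 16.8 and 15.4 CPM in knockout with valproic acid and 27.7, 26.9 and 32.9 CPM in wildtype with valproic acid (log2 -0.75 ± 0.11 SE, edgeR adjusted p = 0.00189). All knockout libraries were below all wildtype libraries. Without the drug it had 24.1, 18.1 and 18.1 CPM in knockout and 26.3, 26.3 and 24.8 CPM in wildtype, and did not pass (log2 -0.36). Without both libraries lacking Xist the log2 fold change was -0.59 (edgeR adjusted p = 0.0576).

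**Figure D3:**
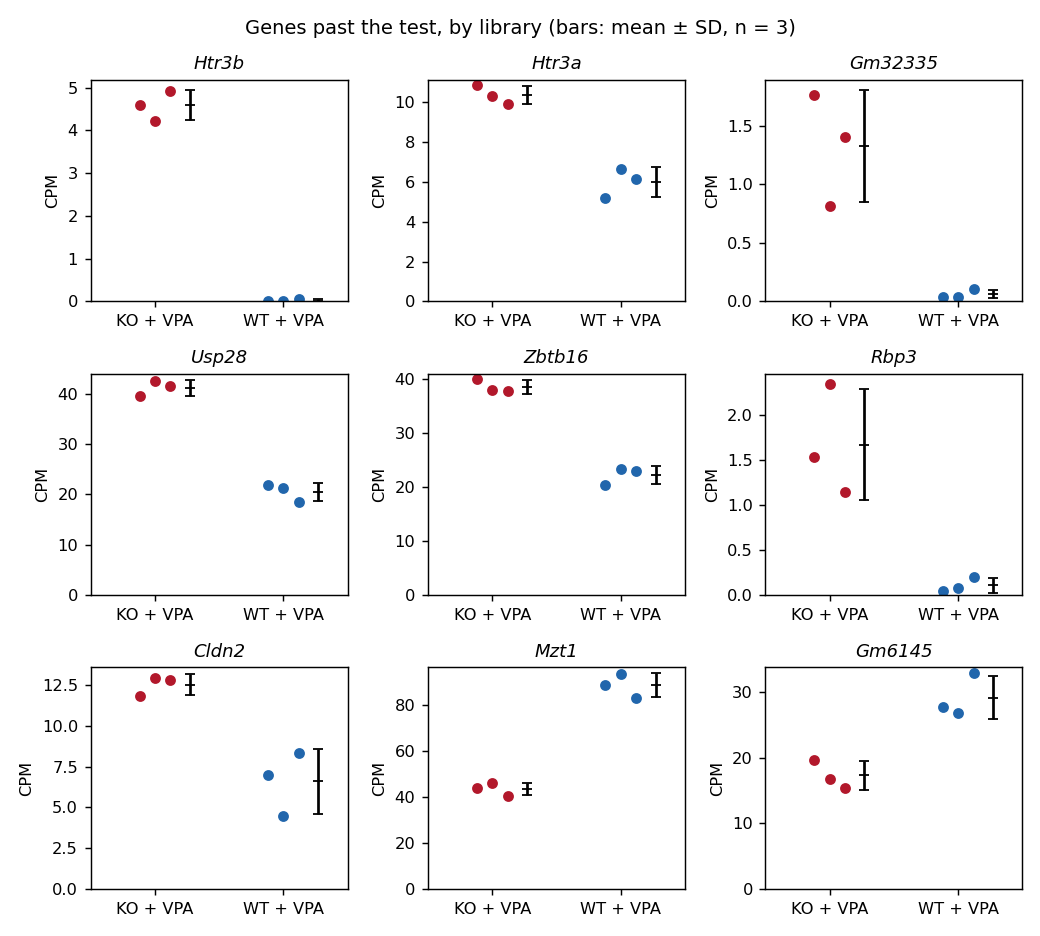
Level in CPM (y axis, from 0) of the 9 genes past the test in each library, with knockout plus valproic acid (KO + VPA, red) left of wildtype plus valproic acid (WT + VPA, blue); black marks show the mean ± SD of 3 libraries. In every panel the groups are apart, most widely for Htr3b, with 4.22 to 4.92 CPM against 0 to 0.051 CPM.

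Genes of the choroid plexus had higher values in the knockout. Cldn2, a claudin that forms pores for sodium in the tight junctions of this epithelium, had 11.8, 12.9 and 12.8 CPM in knockout with valproic acid and 6.97, 4.46 and 8.36 CPM in wildtype with valproic acid, a 1.91-fold rise (log2 0.94 ± 0.17 SE, edgeR adjusted p = 0.0431). The knockout libraries were alike, and the wildtype libraries were lower and more spread. Without the drug Cldn2 had 7.30, 6.40 and 7.59 CPM in knockout and 6.28, 9.16 and 8.78 CPM in wildtype (log2 -0.18), and those groups overlapped. The call was lost in a fit of the 6 exposed libraries alone (edgeR adjusted p = 0.0966) and when any of the knockout libraries or wildtype replicates 1 or 2 with the drug was left out (0.124 to 0.25), at log2 fold changes of 0.71 to 0.99. It was also lost when unexposed knockout replicate 1, 2 or 3 was left out, libraries that enter this comparison only through the shared fit. Without wildtype replicate 3 with the drug the log2 fold change was 1.12 and the edgeR adjusted p 0.00312. In bulk tissue, more cells of a type and more RNA in each cannot be told apart.

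Of the 21 choroid plexus genes, all tested, 21 had higher values (median log2 0.64), 1 passed and 18 had an unadjusted p under 0.05, where 4.01% of all genes were higher at that p. The groups did not overlap in 11 of the 21, against 6.96% of all genes. Without the drug the median of the same genes was 0.09, with 15 of 21 higher. The number past the test after the drug turned on the method. It was 4 of the 21 with DESeq2's Wald test, among 16 that rose of all 17995 tested genes. With limma-voom and quality weights it was 19, among 134 that rose. Aqp1, a water channel, had 14.9, 14.2 and 18.0 CPM in the knockout and 8.72, 5.65 and 9.89 CPM in wildtype (log2 0.97 ± 0.20 SE, edgeR adjusted p = 0.182). Kcnj13, a potassium channel, had 7.73, 6.38 and 6.38 CPM in the knockout and 4.38, 3.44 and 4.03 CPM in wildtype (log2 0.79 ± 0.18 SE, edgeR adjusted p = 0.148). Both genes were apart between the groups without passing. Folr1, a folate carrier, had 17.8, 20.2 and 20.6 CPM in the knockout and 11.1, 8.59 and 15.8 CPM in wildtype (log2 0.74 ± 0.20 SE). Kl, which encodes the ageing-related protein klotho, had 63.5, 68 and 59.0 CPM in the knockout and 39.5, 21.7 and 48.6 CPM in wildtype.

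The distance between the groups turned on wildtype replicates 2 and 3 with the drug. In the summed level replicate 2 was the lowest and replicate 3 the highest of that group. Ttr, the thyroxine carrier and the most abundant of these transcripts by count, had 2776, 2929 and 2426 CPM in the knockout and 1609, 1267 and 2500 CPM in wildtype (log2 0.60 ± 0.24 SE, edgeR adjusted p = 0.634). Its highest wildtype library thus lay within the knockout range. Sostdc1, a secreted antagonist of bone morphogenetic proteins, had 12.7, 13.2 and 11.1 CPM in the knockout and 7.46, 5.20 and 13.7 CPM in wildtype, with replicate 3 above every knockout library. Otx2, the transcription factor that maintains the epithelium, had 8.18, 8.97 and 9.10 CPM in the knockout and 6.12, 4.09 and 8.82 CPM in wildtype. Summed over the 21 genes the level was 4020, 4339 and 3558 CPM in the knockout and 2440, 1855 and 3601 CPM in wildtype, so that the ranges overlapped through wildtype replicate 3. In the unexposed libraries the sum was 2686, 2554 and 2670 CPM in knockout and 1878, 2880 and 2337 CPM in wildtype.

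Without wildtype replicate 3 with the drug, 86 genes passed (44 higher and 42 lower), among them the 9, and 11 of the 21 choroid plexus genes rose, with Ttr at a log2 fold change of 0.91, Folr1 at 0.99 and Aqp1 at 1.12. That library was the highest of exposed wildtype in Ttr, Folr1 and Aqp1, so leaving it out must widen their rise. Without wildtype replicate 1 or 2 with the drug, 0 of the 21 passed. Without both libraries lacking Xist 29 passed, 6 of them choroid plexus genes, and 7 of the 9 were kept. The list median ranged from 0.48, without wildtype replicate 2 with the drug, to 0.98, without both libraries lacking Xist, over all settings tried. Lbp, Slc47a1, Col8a2 and Mfrp, which are not on the list, also rose in the fit without replicate 3 (log2 0.95, 0.85, 0.83 and 1.14), and were chosen after their values were seen apart from Mfrp. In the fit of all libraries Mfrp, a membrane protein gene of ciliary and pigment epithelium, had 16.1, 19.0 and 15.1 CPM in the knockout and 9.32, 5.81 and 10.8 CPM in wildtype (log2 0.96 ± 0.18 SE, edgeR adjusted p = 0.0607).

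**Figure D4:**
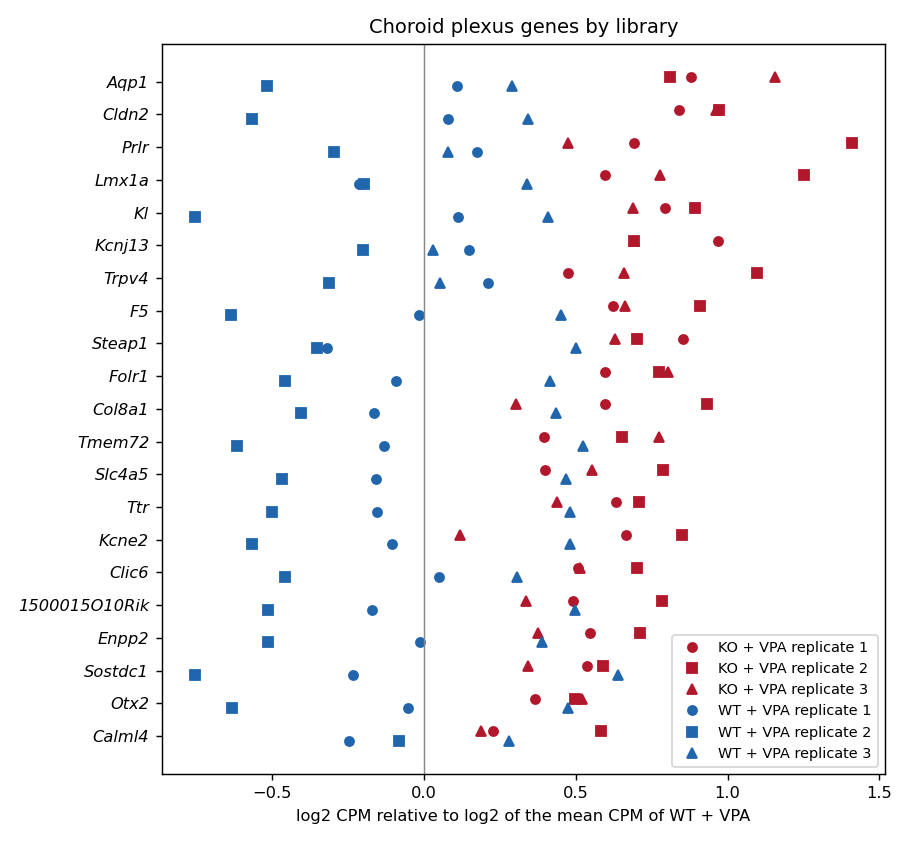
For 21 choroid plexus genes (rows), log2 CPM of each library relative to the log2 of the mean of wildtype plus valproic acid (x axis), with knockout plus valproic acid (KO + VPA, red) above wildtype plus valproic acid (WT + VPA, blue) in each row and shapes for replicates. All 21 lean to the right in the knockout, and wildtype replicate 3 (blue triangles) is the nearest to the knockout values in most rows, above some of them for genes such as Ttr and Sostdc1.

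Markers of other tissue at the borders of the forebrain are given for the same libraries. Of 14 tested ependymal genes, which mark the ciliated lining of the ventricles, 12 had higher values (median 0.29) and 0 passed. Foxj1, the master regulator of motile cilia, had 14.7, 14.2 and 15.2 CPM in the knockout and 11.8, 12.2 and 11.4 CPM in wildtype (log2 0.32 ± 0.16 SE, edgeR adjusted p = 0.679). The summed ependymal level was 62.9, 59.0 and 60.3 CPM in the knockout and 46.0, 47.5 and 54.4 CPM in wildtype, and did not overlap. Without the drug the sum was 51.11, 46.17 and 53.15 CPM in knockout and 41.76, 40.94 and 66.01 CPM in wildtype. Replicate 3 of unexposed wildtype thus stood above every exposed knockout library. Of 18 meningeal fibroblast genes 15 had higher values (median 0.17, and 0.02 without knockout replicate 1), and their sum overlapped at 386, 310 and 315 CPM in the knockout and 281, 252 and 396 CPM in wildtype. The part of dissection in the choroid plexus values was not tested. Of 6 tested red blood cell genes, out of 10 found in the table, 6 had higher values and 0 passed. Their sum was 237.8 to 287.3 CPM in exposed knockout and 177.6 to 226.2 CPM in exposed wildtype. Over the unexposed libraries of both genotypes it was 208.4 to 386.5 CPM. Hbb-bs, an adult beta globin, had 96.0, 125 and 106 CPM in the knockout and 62.8, 65.1 and 77.4 CPM in wildtype (log2 0.67 ± 0.32 SE, edgeR adjusted p = 0.698). Endothelial genes had lower values in 11 of 15 (median -0.07). Tek, the endothelial receptor for angiopoietins, had 5.29, 4.75 and 4.13 CPM in the knockout and 10.6, 9.82 and 7.29 CPM in wildtype, without overlap (log2 -0.98 ± 0.24 SE, edgeR adjusted p = 0.352), and passed with DESeq2 (adjusted p = 0.015).

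Rbp3, which encodes a retinoid-binding protein of the space around photoreceptors and is also expressed in the pineal gland, was higher in exposed knockout than in exposed wildtype. It had 1.53, 2.35 and 1.14 CPM in the knockout and 0.0405, 0.0818 and 0.204 CPM in wildtype. Over the libraries that is 102 counts against 7, a ratio of 16.4 (interval 7.66 to 41.7, edgeR adjusted p = 0.000962). Every knockout library was far above every wildtype library with the drug. Without the drug the gene held 3 counts in knockout and 3 in wildtype, at which no difference was detectable. Of 17 pineal and photoreceptor genes in the list, 6 passed the filter on low counts. Tph1, which makes serotonin as the precursor of melatonin, had 1.53, 2.88 and 0.835 CPM in the knockout and 0.527, 0.409 and 0.51 CPM in wildtype (log2 1.85 ± 0.42 SE, edgeR adjusted p = 0.167). Gnb3, a subunit of the G protein of cones, had 0.739, 3.12 and 0.748 CPM in the knockout and 0.122, 0.532 and 0.153 CPM in wildtype (log2 2.47 ± 0.61 SE, edgeR adjusted p = 0.302). Knockout replicate 2 was the highest library for both genes. Sag, the arrestin of photoreceptors, had 3.35, 2.83 and 3.47 CPM in the knockout and 2.15, 2.21 and 2.09 CPM in wildtype, apart but not past the test.

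Of the 6, 5 had higher values in the knockout, but a gene that is expressed in 1 group can pass such a filter through that group alone, so no median over them is given. Values of the other defining genes of the pineal gland and of photoreceptors were low and uneven between libraries. Aanat, the enzyme that sets the rhythm of melatonin, had 0.625, 0.959 and 0.616 CPM in the knockout and 0.568, 0.859 and 0.816 CPM in wildtype (log2 -0.02 ± 0.41 SE). Crx, below the filter, had 0, 18 and 6 counts in the knockout and 0, 3 and 2 counts in wildtype. Asmt, the last enzyme of melatonin synthesis, had 4, 11 and 4 counts in the knockout and 3, 4 and 3 counts in wildtype. Both had more counts in the knockout, most of them in replicate 2. Gnat2, a G protein subunit of cones, had 3, 24 and 4 counts in the knockout and 3, 4 and 4 counts in wildtype, and Lhx4, a homeodomain factor, had 1, 10 and 0 counts against 2, 1 and 0. Gngt1, a photoreceptor G protein subunit, had 0 counts in all of these libraries. Counts over all 17 genes were 350, 539 and 390 in the knockout and 323, 322 and 288 in wildtype. The part of pineal tissue in the Rbp3 result was not tested.

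Genes of the ribosome and of mitochondrial respiration had slightly higher values in the knockout, each short of the test. Of 82 tested cytosolic ribosomal protein genes, 80 had higher values (median log2 0.21, against 0.00 over all genes), 60 were higher at an unadjusted p under 0.05 (4.01% of all genes were), 42 were higher without overlap between the groups (6.96% of all genes), and 0 passed. With limma-voom and quality weights 24 of them rose, among 134 that rose of all 17995 tested genes. Rpl41, which encodes the smallest protein of the large subunit, had 1110, 942 and 930 CPM in the knockout and 766, 723 and 891 CPM in wildtype (log2 0.33 ± 0.09 SE, edgeR adjusted p = 0.352). Rpl36 had 234, 231 and 244 CPM in the knockout and 186, 202 and 206 CPM in wildtype (log2 0.25 ± 0.07 SE, edgeR adjusted p = 0.346). Both were apart, with the highest wildtype value again in replicate 3. The sum over the list was 31460, 28190 and 27880 CPM in the knockout and 23890, 24280 and 27520 CPM in wildtype. Without knockout replicate 1 the median was 0.14. Near-identical pseudogene copies can share reads with these genes, so their counts are uncertain.

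Of 79 nuclear genes of oxidative phosphorylation, 75 had higher values (94.9%, against 51.2% of all genes, with a median of 0.16), 37 were higher at an unadjusted p under 0.05 (4.01% of all genes were), and 0 passed. With limma-voom and quality weights 11 of the 79 rose, among 134 that rose of all 17995 tested genes. By complex, 34 of 37 were higher for complex I (median 0.16), 4 of 4 for complex II (0.05), 9 of 9 for complex III (0.09), 15 of 15 for complex IV (0.17) and 14 of 15 for complex V (0.17). Ndufa7, an accessory subunit of complex I, had 113, 109 and 111 CPM in the knockout and 94.0, 90.4 and 93.8 CPM in wildtype (log2 0.26 ± 0.07 SE, edgeR adjusted p = 0.302). Cox4i1, a subunit of cytochrome c oxidase, had 1305, 1218 and 1241 CPM in the knockout and 1017, 1014 and 1196 CPM in wildtype. Both were apart between the groups, by a narrow gap for Cox4i1. The 13 protein genes of the mitochondrial genome had higher values in 10 (median 0.11), and their sum overlapped at 162500, 115300 and 111000 CPM in the knockout and 106900, 114200 and 138900 CPM in wildtype. Without the drug the medians were 0.01 for ribosomal protein genes and 0.05 for the nuclear oxidative phosphorylation genes.

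Lists of autism risk, GABA receptor and presynaptic genes had slightly lower values. Of 50 autism risk genes 42 had lower values (median -0.08), of 21 genes of GABA receptors and chloride transport 19 did (median -0.14) and of 30 presynaptic genes 22 did (median -0.08), where 8785 of all 17995 genes did. In direction alone the glutamate receptor and scaffold list was close to all genes, with 21 of 40 lower and a median of -0.01. The knockout was lower without overlap in 15 autism risk, 7 GABA list and 8 glutamate list genes, against 6.23% of all genes. In the glutamate list 1 gene was higher without overlap. At an unadjusted p under 0.05, 6 genes of that list were lower and 2 higher, against 3.42% and 4.01% of all genes. None of these passed in the main edgeR fit of all libraries. With limma-voom and quality weights 3 glutamate list, 2 autism risk, 1 GABA list and 1 presynaptic gene fell, among 70 that fell. Grin2b is on both the autism risk and the glutamate list. With no count filter Grin2a, Grin2b, Nlgn1 and Scn2a fell, and with DESeq2 Scn2a did (adjusted p = 0.0407). Scn2a, a voltage-gated sodium channel of excitatory neurons, had 104, 117 and 114 CPM in the knockout and 148, 136 and 130 CPM in wildtype (log2 -0.30 ± 0.07 SE, edgeR adjusted p = 0.184). Nlgn1, a postsynaptic adhesion protein, had 31.4, 35.6 and 34.4 CPM in the knockout and 45.4, 43.1 and 39.1 CPM in wildtype (log2 -0.33 ± 0.08 SE, edgeR adjusted p = 0.289). In each gene the knockout libraries were all below wildtype. Grin2a, a subunit of the NMDA receptor, had 55.9, 65.8 and 63.9 CPM in the knockout and 84.2, 85.1 and 65.9 CPM in wildtype. Wildtype replicate 3 was the lowest of its group in Nlgn1, Grin2a and Scn2a. Without it Grin2a, Grin2b, Nlgn1, Scn2a, Syt1 and Gabrb2 were among the genes that fell, with log2 fold changes of -0.46, -0.42, -0.39, -0.35, -0.34 and -0.46. Leaving out the wildtype library that is lowest in a gene must widen the fall of that gene. Without wildtype replicate 1 or 2 with the drug, 7 and 8 genes passed in all, and 0 of them were in these lists.

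Exon length, counted over all annotated exons of a gene and not for a single transcript, went with these values. When 17680 tested genes were divided into 5 equal bins by exon length, the median log2 fold change after valproic acid was 0.09, 0.03, 0.01, -0.01 and -0.05 from the shortest to the longest, and 66.0%, 58.1%, 52.7%, 46.2% and 32.4% of the genes had higher values. Without the drug the same medians were 0.01, -0.01, 0.00, -0.01 and 0.00. The order was kept when any exposed library was left out, with 0.08 to 0.10 in the shortest bin and -0.06 to -0.04 in the longest. The median exon length was 1736 bases for ribosomal protein genes, 1587 bases for nuclear oxidative phosphorylation genes, 6542 bases for the GABA list and 12670 bases for autism risk genes, against 3642 bases for choroid plexus genes. The part of length in the list values was not tested.

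**Figure D5:**
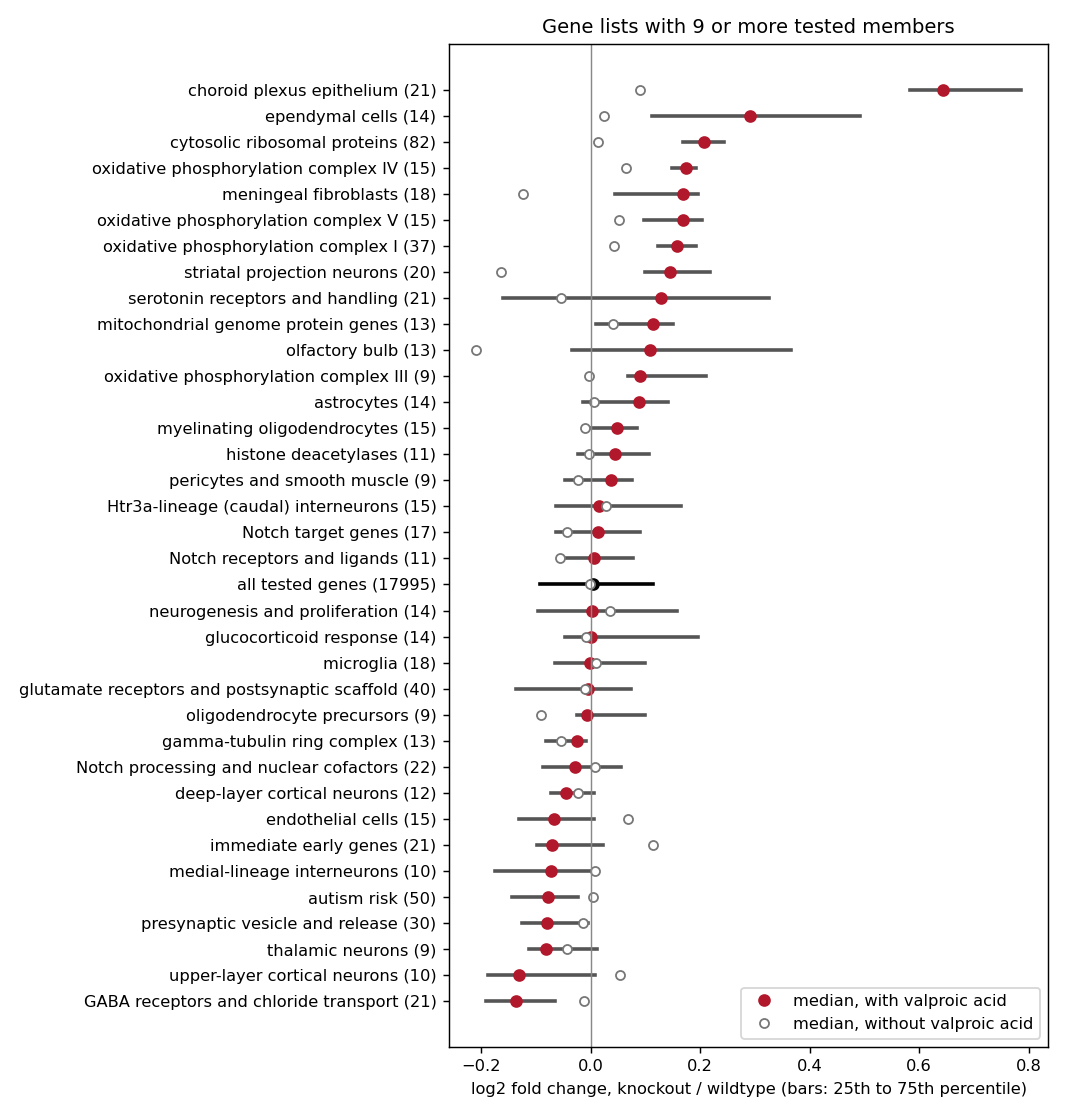
Median log2 fold change of knockout over wildtype (x axis) for gene lists with 9 or more tested members (rows, with the number tested), with valproic acid in red, or black for all tested genes, and bars from the 25th to the 75th percentile of the exposed comparison; open circles give the median without the drug. Choroid plexus stands at 0.64, ribosomal protein genes at 0.21 and the GABA list at -0.14, beside 0.00 for all genes.

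Cell types of the forebrain itself gave smaller values. Of 20 markers of striatal projection neurons 18 had higher values (median 0.14) and 0 passed. Syndig1l, a synapse differentiation protein gene, had 61.6, 63.4 and 71.2 CPM in the knockout and 51.7, 58.3 and 55.3 CPM in wildtype (log2 0.25 ± 0.09 SE, edgeR adjusted p = 0.505). Drd1, the D1 dopamine receptor, had 26.8, 32.4 and 32.5 CPM in the knockout and 24.9, 28.4 and 30.3 CPM in wildtype, with overlap. Without the drug 19 of the 20 had lower values in the knockout (median -0.16). Upper-layer cortical markers had lower values in 7 of 10 (median -0.13), of which Unc5d, a netrin receptor gene, had 24.0, 19.6 and 20.3 CPM in the knockout and 29.9, 26.2 and 25.1 CPM in wildtype (log2 -0.35 ± 0.10 SE, edgeR adjusted p = 0.41). Microglial markers were split 9 to 9 (median -0.0018), astrocyte markers had higher values in 9 of 14 (median 0.09) and oligodendrocyte markers in 9 of 15 (median 0.05), all with 0 past the test. Of 11 histone deacetylase genes, which encode targets of valproic acid and their relatives, 6 had higher values. Hdac5 had 342, 316 and 317 CPM in the knockout and 247, 294 and 301 CPM in wildtype, apart but not past the test (log2 0.21 ± 0.08 SE, edgeR adjusted p = 0.514).

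The genes closest to the threshold without passing included both directions. Lmo3, a transcription cofactor of forebrain neurons, had 73.6, 78.2 and 67.6 CPM in the knockout and 104, 105 and 83.4 CPM in wildtype (log2 -0.41 ± 0.08 SE, edgeR adjusted p = 0.0607). Car12, a membrane-bound carbonic anhydrase, had 31.7, 37.8 and 33.9 CPM in the knockout and 24.0, 22.9 and 28.1 CPM in wildtype (log2 0.47 ± 0.10 SE, edgeR adjusted p = 0.0756). Igfbp2, whose protein binds insulin-like growth factors, had 95.4, 91.7 and 94.1 CPM in the knockout and 77.6, 62.0 and 77.4 CPM in wildtype (log2 0.37 ± 0.08 SE, edgeR adjusted p = 0.0787). The 3 genes did not overlap between the groups. Cd9, a tetraspanin, and Gng13, a G protein gamma subunit, had higher values without overlap (log2 0.35 and 0.40), and Ncam2, a neural adhesion molecule, and Slc24a2, a sodium-calcium-potassium exchanger, had lower values (log2 -0.35 and -0.33). With DESeq2 all of these and Pcdh9 passed, among 25 genes that include the 9.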

How the data were processed

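The authors deposited 1 table of raw counts per Ensembl gene (56748 genes, of which 22955 had no count), with no normalisation. Per the labels' protocols, rRNA was depleted and an NEBNext Ultra kit was used for library construction. HISAT2 and GRCm39 are named, with no versions, in the submitters' processing notes. The program used for counting, its annotation release and whether strand was used were not given in the sources used here. Symbols, exon lengths and gene order came from a GENCODE mouse annotation on GRCm38 (52125 identifiers matched, with 99.5% of the counts).

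The analysis used edgeR 4.0.16, DESeq2 1.42.0 and limma 3.58.1 in R 4.3.3, and Python 3.11.15. Genes kept by filterByExpr (17995) were scaled by TMM factors of 0.93 to 1.02 and fitted with a mean per group over all 12 libraries by edgeR's quasi-likelihood method with robust estimation (common biological CV of 0.0898), so that all groups share an estimate of the spread. Contrasts were tested two-sidedly with Benjamini-Hochberg adjustment. The method was checked on simulated counts in which no library was set apart from its group, so that check does not cover the libraries here that stood apart. The groups, the 44 gene lists and the naming rule were chosen with earlier results of these data known. Named were all genes past the test, the Notch receptor genes, Rbpj, Htr3a and Htr3b, the 10 smallest p-values that missed it, the 4 smallest p-values per list and the 5 tested neighbours on either side of Htr3a and Mzt1; other genes named were chosen as the members that best describe a list, after their values were seen, and not every gene of the rule is printed. Lists are described by counts and medians, with no test of a list. Other settings were DESeq2's size factors and Wald test, limma-voom with quality weights, no count filter, a fit of the 6 exposed libraries, the replicate number as a block, a term for lacking Xist, leaving out both libraries without Xist, and each library left out in turn. Total counts were 16887885 to 24944681 per library, and intervals of count ratios cover counting error only. Some genes of the lists are not reported here.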

Additional observations from a re-analysis of the deposited data

How the results depend on the processing

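The 9 genes that passed after valproic acid became 25 with DESeq2's Wald test, 204 with limma-voom and quality weights (134 higher and 70 lower), 60 with no count filter and 29 without both libraries lacking Xist. They were 7 to 86 when each library was left out in turn, with 86 without wildtype replicate 3 with the drug, and the cause was not tested. DESeq2's size factors kept 9, a fit of the 6 exposed libraries gave 10 (8 shared) and a term for lacking Xist 10. The replicate numbers did not pair the samples (r of deviations -0.05, 0.05 and 0.00 for replicates 1, 2 and 3), and the replicate block gave 12 calls, with the 9 among them. Without the drug the 7 calls became 15 with no count filter. For the interaction the 0 calls became 5 with no count filter (Cldn2, Tek, Folr1, Mfrp and Gpr161), 4 without both libraries lacking Xist, and 0 to 1 over the fits that left out a library (Wdfy1 without knockout replicate 1, and Rpl17-ps10 without knockout replicate 1 with the drug). Signs turned for Notch2 (-0.0002505 with DESeq2, -0.004521 with no count filter, -0.0002649 with the Xist term, -0.008485 without both libraries lacking Xist, and -0.13 to 0.0989 over the fits without a library), for Notch3 (-0.19 to 0.15 over those fits) and for Notch4 (-0.001079 with no count filter, -0.0692 without both libraries lacking Xist, and -0.0737 to 0.13 over those fits), all log2 fold changes that did not pass. Tallies of single genes and of list medians leave out the fits without an unexposed library. Among the single genes followed, 1134 values kept their sign and side of the threshold, 101 newly passed, 12 no longer passed and 13 changed sign. The losses of Cldn2 without an unexposed knockout library are thus not among the 12. Of list medians 584 moved by less than the spread between replicates and 46 by more. Depth limits Htr3b, Gm32335 and Rbp3, whose wildtype counts with the drug were 1, 4 and 7.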
